A study of Mus musculus with 4 samples.

Results

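Type I interferon stimulated genes are the genes that cells switch on when an interferon of the alpha or beta kind binds its receptor. A list of 38 such genes was read in regulatory T cells (Treg), the CD4+ T cells that express Foxp3 and restrain immune responses. The members were taken by gene symbol, matched to the table's Ensembl identifiers, by a rule that names them and sets no threshold on values, and all 38 were found among the 38924 genes of the count table. All 38 also passed the filter on low counts, which kept 14235 genes. The series has 2 activated Treg libraries and 2 resting Treg libraries from mouse spleen, and its design text calls the animals biologically independent. The activated group is labelled aTreg and the resting group rTreg, and both carry 1 and the same sort gate of CD4+Foxp3+ cells in the labels. The labels give no strain, age, sex, treatment or allele for either group. The series is titled for Foxo1, a transcription factor of quiescent T cells, and its design sets activated against resting Treg.

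Interferon binds a receptor made of Ifnar1 and Ifnar2, the kinases Jak1 and Tyk2 attached to it phosphorylate STAT proteins, and these join Irf9 into a complex that binds the interferon stimulated response element in DNA. The genes switched on in this way act against viruses: some sense foreign nucleic acid, some cut or bind RNA, some tag proteins and some turn the response down again. Lymphocytes express many of them at a low, steady level without infection, since small amounts of interferon signal continuously.

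The response element is shown first because it is the feature that the members are known to share. The letters GAAANNGAAA were searched on both strands, as GAAANNGAAA and TTTCNNTTTC, in windows from 250 bases before to 50 bases after each annotated start site (RefSeq, GRCm38.p6). Of the 38 members, 28 had a window, and 15 of these 28 held the letters, 53.6%, against 1079 of 27025 genes with a window, 3.99%. A match is a description of the letters and not a measured binding site, and a window without them says only that these letters are not in it. The shorter letters TTCNNNGAA, known as the gamma activated site, were in 5 of the 28 members' windows, 17.9%, and in 9.55% of the 27025 genes. The sequences below, each on the gene's own strand and upstream of the start site, carry the response element in capitals. They are those of Ifit1, Ifit3 and Ifit3b, whose activated libraries both lay below the resting ones, and of Isg15 and Oas1a, whose groups overlapped. The difference between these sets was not tested.
Ifit1 (chr19:34640760-34640838, plus strand): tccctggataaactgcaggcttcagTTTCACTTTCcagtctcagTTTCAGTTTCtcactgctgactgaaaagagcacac
Ifit3 (chr19:34583348-34583441, plus strand): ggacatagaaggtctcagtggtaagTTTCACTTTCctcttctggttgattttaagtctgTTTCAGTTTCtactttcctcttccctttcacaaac
Ifit3b (chr19:34607744-34607837, plus strand): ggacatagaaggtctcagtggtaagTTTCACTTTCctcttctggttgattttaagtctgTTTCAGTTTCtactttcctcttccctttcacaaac
Isg15 (chr4:156200850-156200921, minus strand): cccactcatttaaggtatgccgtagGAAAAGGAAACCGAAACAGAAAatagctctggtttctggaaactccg
Oas1a (chr5:120907526-120907570, minus strand): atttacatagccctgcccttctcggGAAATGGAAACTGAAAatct

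The Ifit3 and Ifit3b stretches printed above are identical, and the longest identical run in the 2 windows is 169 bases. In Isg15 the element occurs 3 times, each copy overlapping the next, and in Oas1a 2 times with an overlap. Ifit1, Ifit3 and Ifit3b each hold 2 separate copies on the opposite strand. Among the 15 members with the letters, the log2 fold change between activated and resting Treg ran from -0.99 for Ifit3 to 0.36 for Oas1a.

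**Figure D1:**
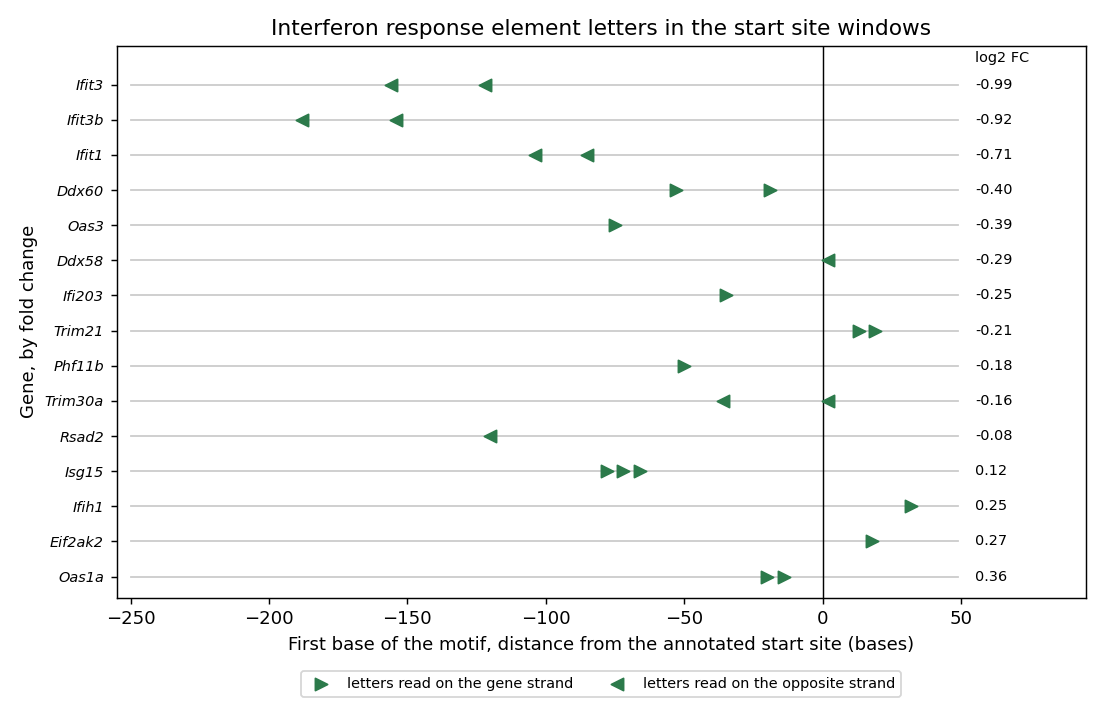
Position of the response element letters in the start site windows of the 15 members that held them, ordered by fold change. The horizontal axis is the distance in bases of the motif's first base, counted along the gene's strand, from the annotated start site at 0, arrows give the strand, and the column on the right is the log2 fold change, activated over resting Treg. Ifit3, Ifit3b and Ifit1 stand at the top, at -0.99, -0.92 and -0.71, and Oas1a at the bottom, at 0.36.

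Activated A and B held 29332058 and 20282062 counts, and resting A and B 20699024 and 31851982. Activated B had counts in 23398 genes, against 19610 in activated A and 19061 and 18928 in resting A and B. The part of this difference in the members' values was not tested. The letters A and B only name the columns of a group, because the table's headings do not tell its replicates apart. Levels are given in CPM, counts scaled to a common library size with TMM factors, and 1 CPM was 20.3 to 30.6 counts. Foxp3 lay between 35.1 and 38.8 CPM in all 4 libraries. Of the other Treg markers, Ctla4 and Cd4 were higher in both activated libraries, Il2ra was lower in both and Cd3e overlapped. Ctla4 was at 231 and 308 CPM in activated Treg and 137 and 215 CPM in resting Treg. Cd4 was at 1095 and 1245 CPM against 897 and 967 CPM, and Il2ra at 921 and 719 CPM against 1030 and 1088 CPM. Cd44, a surface protein of activated T cells, was at 329 and 335 CPM in activated Treg and 145 and 213 CPM in resting Treg. Markers of other spleen cells were present. The 8 macrophage and monocyte markers summed to 495 CPM in activated A and 64.2 CPM in activated B, against 425 CPM in resting A and 14.0 CPM in resting B, so that A stood apart from B in both groups. The 10 plasmacytoid dendritic cell markers summed to 943 and 342 CPM in activated Treg and 198 and 210 CPM in resting Treg. Of these 10, 8 were higher in both activated libraries than in both resting ones, and 0 were lower. The largest in resting Treg were Pacsin1, at 62.5 and 71.9 CPM, and Bst2, at 54.6 and 71.2 CPM. Siglech was at 280 and 58.7 CPM in activated Treg and at 0.778 and 0.261 CPM in resting Treg. The 6 conventional dendritic cell markers summed to 155 and 42.7 CPM against 11.4 and 7.93 CPM. At most 1 marker of each of these 3 lists was at 0 in any library. The proliferation genes Mki67 and Top2a summed to 171 and 305 CPM in activated Treg and 106 and 468 CPM in resting Treg. In bulk RNA, fewer cells of a type and less RNA per cell cannot be told apart, and what these cells contribute to the interferon stimulated genes was not tested.

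Most of the 38 members were somewhat lower in activated than in resting Treg, by amounts that few of them carried past a test. This holds for the list, which was chosen with earlier results of these data known. Among 33 other interferon induced genes outside it, the median log2 fold change was 0.01, with 16 below 0 and 17 above. The log2 fold change, activated over resting, was below 0 for 32 of the 38 members (29 with scaling by total counts), against 50.9% of the 14235 genes tested. The median was -0.29 for the members and -0.01 for all genes tested. The 38 members together took up 3272 and 2915 CPM in activated Treg, against 3554 and 3823 CPM in resting Treg (A, then B), with both activated libraries below both resting ones. As a share of all counts this was 0.341% and 0.291% in activated Treg and 0.353% and 0.368% in resting Treg.

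With an adjusted p under 0.05, edgeR's quasi-likelihood test called 0 of the 38 members, as it called 0% of the 14235 genes. Before adjustment, 6 members were lower with an edgeR p under 0.05, where 2.61% of all genes were, and 0 members were higher, where 6.3% were. DESeq2 called 2 members lower (0.829% of all genes) and 0 higher (2.28%). Limma with no replicate block called 0 members and 0 of all genes, both with voom weights and on the deposited regularized log values. Before adjustment it found 6 and 9 members lower, where 2.59% and 2.85% of all genes were. It found 0 members higher, where 904 and 965 of the 14235 genes were. In 18 members, 47.4%, each activated library was under each resting library, where 17.4% of all genes did, and above them in 1 member, Eif2ak2, where 19.8% did. Removing a library leaves 1 in its group, so only fold changes are given for these sets. The members' median log2 fold change was -0.40 without activated A and -0.198 without activated B, with 32 and 28 of the 38 below 0. It was -0.32 without resting A and -0.25 without resting B, with 33 and 28 below 0.

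**Figure D2:**
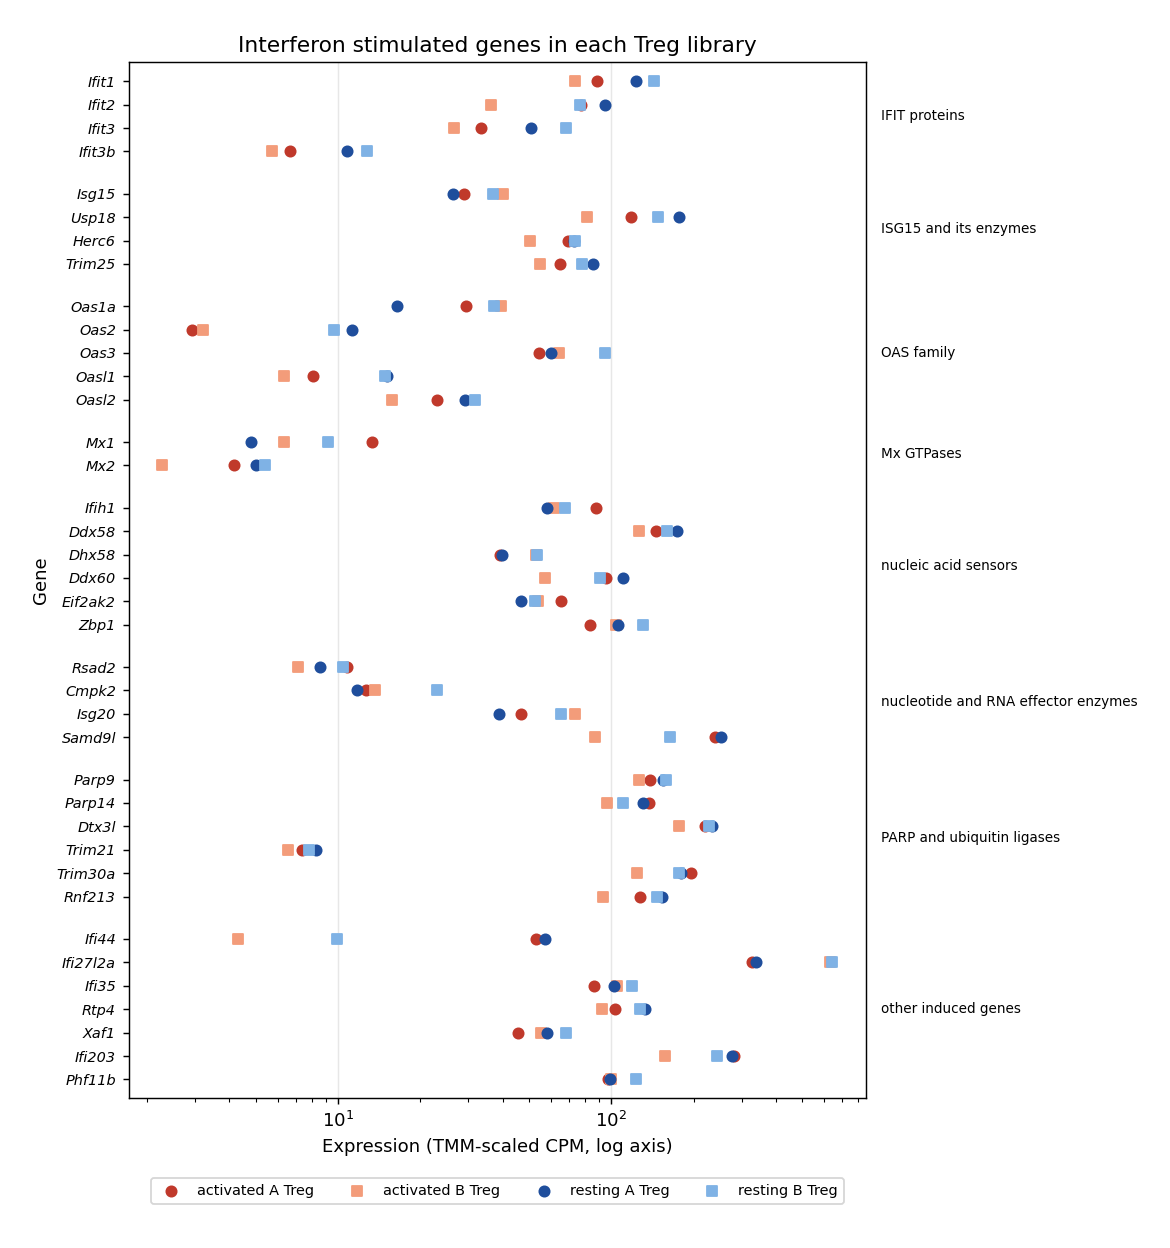
Level of each of the 38 genes in every library, as TMM-scaled CPM on a log axis, with genes grouped by role. Red and orange symbols are activated A and B, dark and light blue symbols resting A and B. Oas2 lay at 2.91 and 3.21 CPM in activated Treg and at 11.3 and 9.66 CPM in resting Treg, while Ifi44 split by library, with A at 53.0 and 57.2 CPM and B at 4.29 and 9.89 CPM.

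Levels differed widely among the members. Per kilobase of exon, Ifi27l2a, which encodes a small membrane protein, was the highest, at 1039 CPM per kb in activated Treg and 1060 in resting Treg. Phf11b, which shares 47.0% of its 50-base words with other genes, mainly Phf11a, and is uncertain for that reason, followed at 83.2 and 94.1 CPM per kb, and Ifi35 at 55.4 and 64.2. Oas2 was the lowest in activated Treg, at 0.687 CPM per kb against 2.35 in resting Treg, and Mx2 was the lowest in resting Treg, at 0.889 CPM per kb in activated Treg and 1.44 in resting Treg. Ifi27l2a alone made up 10.03% and 21.8% of the members' summed CPM in activated Treg, against 9.50% and 16.8% in resting Treg (A, then B). Without it, the remaining 37 members summed to 2944 and 2281 CPM in activated Treg and 3216 and 3179 CPM in resting Treg.

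All 4 IFIT genes had a log2 fold change below 0, and their median of -0.82 was the lowest of the 8 role groups. They encode proteins that bind foreign or altered RNA and block its translation, and they sit side by side on chromosome 19 (Ifit2 from 34550694, Ifit1 up to 34650009, mm10). Ifit1, which binds RNA whose cap lacks the host's methyl marks, was at 89.0 and 73.5 CPM in activated Treg and 123 and 143 CPM in resting Treg. Both activated libraries were below both resting ones, with a log2 fold change of -0.71 ± 0.19 (SE) and an edgeR adjusted p of 0.369. Ifit3, whose human counterpart stabilises IFIT1, was at 33.5 and 26.6 CPM in activated Treg and 50.9 and 68.1 CPM in resting Treg. The groups did not overlap, the log2 fold change was -0.99 ± 0.24, and DESeq2 called the gene lower (adjusted p = 0.0309) while edgeR did not (adjusted p = 0.357). Ifit3b, a close copy of Ifit3, was at 6.64 and 5.72 CPM in activated Treg and 10.8 and 12.8 CPM in resting Treg, again without overlap. Its log2 fold change was -0.92 ± 0.30, with an edgeR adjusted p of 0.450. The Ifit3 and Ifit3b transcripts were 97.8% identical over 1700 aligned positions. Of the 50-base words of Ifit3, 51.2% occurred in a transcript of another gene, mainly Ifit3b, so their separate counts are uncertain. Ifit2, at 77.6 and 36.3 CPM in activated Treg and 94.7 and 76.8 CPM in resting Treg, did overlap: activated A lay just above resting B.

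Of the 5 OAS genes, 4 had a log2 fold change below 0, with a median of -0.64. Oas1a, Oas2 and Oas3 make short oligoadenylates, which act as messengers of the antiviral state. Oas2 had the largest fold change of all 38 members. It lies on the minus strand of chromosome 5 (120730333 to 120749853, mm10), next to Oas3, with 3244 bases between them. It held 89 and 65 counts in activated Treg and 232 and 296 counts in resting Treg, or 2.91 and 3.21 CPM against 11.3 and 9.66 CPM. The groups stood far apart, and the libraries within a group differed little. The log2 fold change was -1.75 ± 0.32, with an adjusted p of 0.284 by edgeR and 0.00142 by DESeq2. Oas3 was at 54.4 and 64.1 CPM in activated Treg and 60.3 and 94.6 CPM in resting Treg, and the groups overlapped. Oas1a was at 29.4 and 39.4 CPM in activated Treg and 16.4 and 37.2 CPM in resting Treg, a log2 fold change of 0.36 ± 0.43. Its sign rests on resting A, without which it was -0.12, and 57.6% of its 50-base words occur in other genes, mainly Oas1g.

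Oasl1, which in mice restrains the translation of Irf7, was at 8.11 and 6.32 CPM in activated Treg and 15.1 and 14.8 CPM in resting Treg. The groups were clearly apart, with a log2 fold change of -1.04 ± 0.29 and adjusted p of 0.372 by edgeR and 0.0759 by DESeq2. Its neighbour Oasl2 was at 23.1 and 15.8 CPM in activated Treg and 29.1 and 31.7 CPM in resting Treg, also without overlap (log2 fold change -0.64 ± 0.26). In this family 3 genes were lower in both activated libraries and 2 overlapped.

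**Figure D3:**
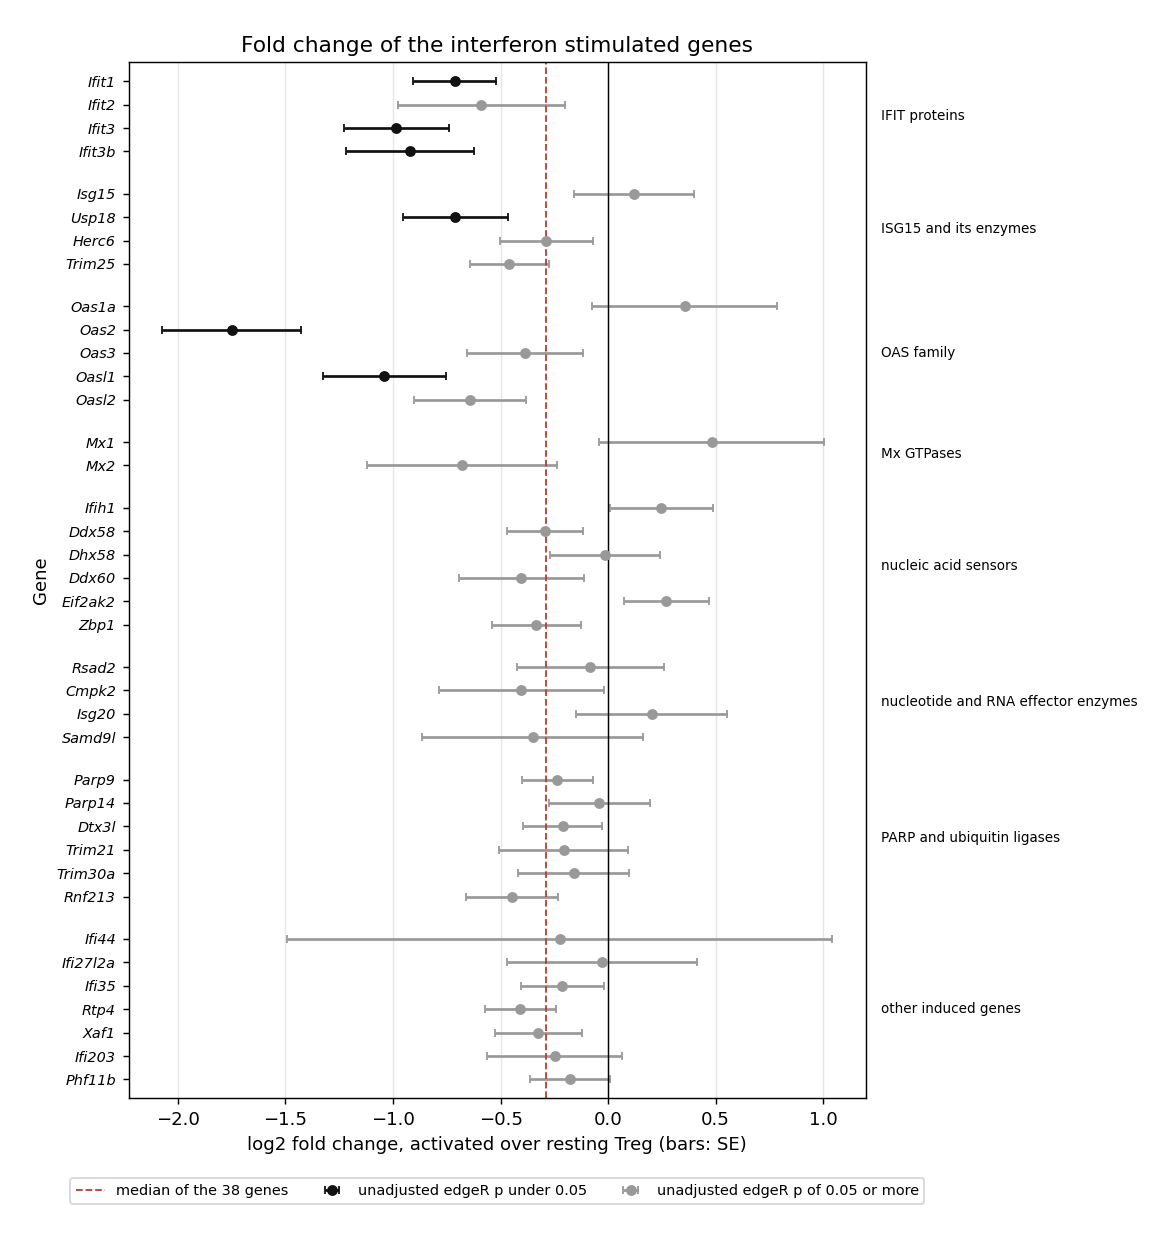
Log2 fold change, activated over resting Treg, of the 38 genes by role, with bars of 1 SE from edgeR and black points for an unadjusted p under 0.05. The dashed line is the members' median, -0.29. Oas2 stands farthest to the left at -1.75, the 4 IFIT genes lie between -0.99 and -0.59, and the widest bar belongs to Ifi44.

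Of Isg15 and the 3 enzymes grouped with it, the enzymes were lower in both activated libraries and Isg15 overlapped, and neither edgeR nor DESeq2 called any of the 4 after adjustment (edgeR found 1, Usp18, before it). Isg15, a ubiquitin-like protein that is attached to other proteins, was at 28.9 and 40.1 CPM in activated Treg and 26.4 and 36.9 CPM in resting Treg. The groups overlapped, and the log2 fold change of 0.12 ± 0.28 turned negative without activated B or without resting A. Usp18, which removes Isg15 from proteins and also damps signalling at Ifnar2, was at 118 and 81.2 CPM in activated Treg and 177 and 149 CPM in resting Treg. The groups did not overlap, with a log2 fold change of -0.71 ± 0.24 and an edgeR adjusted p of 0.487. Herc6, the main ligase that attaches Isg15 in mice, had a mean of 59.9 ± 13.4 CPM (SD, n = 2) in activated Treg and 73.2 ± 0.594 CPM in resting Treg. Trim25, a ubiquitin ligase that acts on the RNA sensor Ddx58, was at 64.6 and 54.7 CPM in activated Treg and 85.8 and 78.2 CPM in resting Treg, a log2 fold change of -0.46 ± 0.18. Neither Herc6 nor Trim25 passed, and in both the groups did not overlap. Of the enzymes outside the list, Ube2l6, which carries Isg15 to its ligase, was at 81.7 and 103.9 CPM in activated Treg and 51.0 and 71.8 CPM in resting Treg, higher in both activated libraries (log2 fold change 0.59 ± 0.25, edgeR adjusted p = 0.600). Uba7, which loads Isg15 onto Ube2l6, was at 185 and 154 CPM against 169 and 121 CPM.

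The Mx genes, which encode GTPases that trap viral particles, had few counts, and many laboratory strains carry defective alleles of Mx1. Mx1 was at 13.3 and 6.32 CPM in activated Treg and 4.81 and 9.17 CPM in resting Treg, with activated A above the other 3 libraries. Its log2 fold change of 0.48 ± 0.52 was the highest of the members and turned to -0.14 without activated A. Mx2 was at 4.15 and 2.27 CPM in activated Treg and 5.01 and 5.42 CPM in resting Treg, without overlap.

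The nucleic acid sensors were split, 4 below 0 and 2 above, with a median log2 fold change of -0.15 and values from -0.40 to 0.27. Ddx58, the sensor RIG-I, was at 146 and 126 CPM in activated Treg and 175 and 160 CPM in resting Treg, and Zbp1, a sensor of left-handed nucleic acid, at 83.6 and 103.8 CPM against 105.8 and 130 CPM. In both genes the activated libraries were the lower ones, though for Zbp1 by a narrow margin. Ifih1, the sensor MDA5, was at 88.0 and 61.6 CPM in activated Treg and 58.3 and 67.7 CPM in resting Treg and overlapped. Dhx58, the relative LGP2, had the log2 fold change nearest 0 of the members, -0.01 (0.048 with scaling by total counts): 46.1 ± 9.96 CPM in activated Treg and 46.5 ± 9.55 CPM in resting Treg (SD, n = 2 each). Eif2ak2, the kinase PKR that stops translation, was at 65.7 and 53.9 CPM in activated Treg and 46.5 and 52.6 CPM in resting Treg. It was the only member whose activated libraries were both above both resting ones, with activated B only just above resting B. Ddx60, a helicase that assists RIG-I, was at 95.3 and 57.1 CPM against 110.6 and 91.0 CPM.

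The enzymes that act on nucleotides and RNA overlapped in all 4 cases. Samd9l, which restrains translation in infected cells, was at 240 and 87.1 CPM in activated Treg and 253 and 164 CPM in resting Treg, with activated B the low one. Rsad2 (viperin), which makes a nucleotide that ends viral RNA chains, was at 10.8 and 7.11 CPM against 8.60 and 10.4 CPM. Cmpk2, the nucleotide kinase gene 12751 bases from Rsad2 in the opposite orientation, was at 12.7 and 13.6 CPM in activated Treg and 11.7 and 23.1 CPM in resting Treg. Isg20, an exonuclease gene, was at 46.9 and 73.3 CPM against 38.8 and 65.5 CPM, so that library B was the higher one in both groups.

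All 6 members of the PARP and ubiquitin ligase group lay below 0, by small steps, with a median log2 fold change of -0.21 (with scaling by total counts Parp14 was at 0.025). Dtx3l, a ubiquitin ligase, was at 220 and 177 CPM in activated Treg and 233 and 227 CPM in resting Treg. Parp9, its partner protein, was at 139 and 126 CPM in activated Treg and 154 and 158 CPM in resting Treg. These genes are transcribed from overlapping start regions on chromosome 16, share 458 exon bases on opposite strands, and were both lower in both activated libraries. Rnf213, a very large ubiquitin ligase, was at 127 and 92.9 CPM against 153 and 147 CPM (log2 fold change -0.45 ± 0.21), and Trim21, a receptor for antibody inside cells, at 7.36 and 6.56 CPM against 8.31 and 7.80 CPM, again without overlap. Parp14 and Trim30a overlapped, with log2 fold changes of -0.04 ± 0.24 and -0.16 ± 0.26. None of the 6 had an unadjusted p under 0.05.

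Of the 7 remaining members, all had a negative log2 fold change, from -0.41 to -0.03, and 2 did not overlap (with scaling by total counts Ifi27l2a was at 0.032). Rtp4, a receptor chaperone, was at 103 and 92.8 CPM in activated Treg and 132 and 128 CPM in resting Treg (log2 fold change -0.41 ± 0.17), with tight libraries in both groups. Xaf1, an opponent of the survival protein XIAP, was at 45.5 and 55.3 CPM against 58.0 and 68.1 CPM. Ifi35 and Phf11b stayed within 86.4 to 124 CPM in all 4 libraries, and Ifi203 was at 282 and 157 CPM in activated Treg and 278 and 244 CPM in resting Treg. Ifi27l2a was at 328 and 634 CPM in activated Treg and 338 and 644 CPM in resting Treg. Its groups were almost superimposed while its libraries within a group differed nearly 1 log2 unit, -0.95 and -0.93 for A over B.

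Libraries of 1 group also differed from each other. For the members, the median size of the log2 ratio of A to B was 0.43 in activated Treg and 0.23 in resting Treg, beside 0.33 for the log2 ratio of group means. Over all genes tested these medians were 0.40, 0.32 and 0.24. The group difference exceeded both differences within groups in 14 of the 38 members, 36.8%, and in 26.3% of all genes. Ifi44, named here after its values were seen, varied most: A over B was 3.60 on the log2 scale in activated Treg and 2.52 in resting Treg. It had 53.0 and 4.29 CPM in activated Treg and 57.2 and 9.89 CPM in resting Treg. Its log2 fold change of -0.23 ± 1.27 ran from -2.93 to 1.51 when single libraries were left out, with 0.66 without activated B and 1.51 without resting A. Samd9l had the next largest ratio in activated Treg, 1.46, with 0.63 in resting Treg, where Oas1a was the second after Ifi44, at -1.18.

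A was above B in both groups in 15 members, where 37.2% of all genes tested were, and B above A in both groups in 11 members, where 35.5% were. The first 15 included Ifi44, Samd9l, Ifit2, Ddx60 and Ifi203. The other 11 included Ifi27l2a, Isg15, Isg20, Oas1a and Zbp1. These shares of the members, 39.5% and 28.9%, were near or below those of all genes. In 11 further members, 28.9%, A was above B in activated Treg and B above A in resting Treg, where 14.5% of all genes did this. They were Ifit1, Ifit3, Ifit3b, Herc6, Oasl2, Mx1, Mx2, Ifih1, Eif2ak2, Rsad2 and Parp9. Oas2 alone had B higher in activated Treg and A higher in resting Treg. In the same libraries, all 8 macrophage and monocyte markers were higher in A than in B in both groups, and Mki67 and Top2a were both higher in B. Their part in the members' values was not tested.

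**Figure D4:**
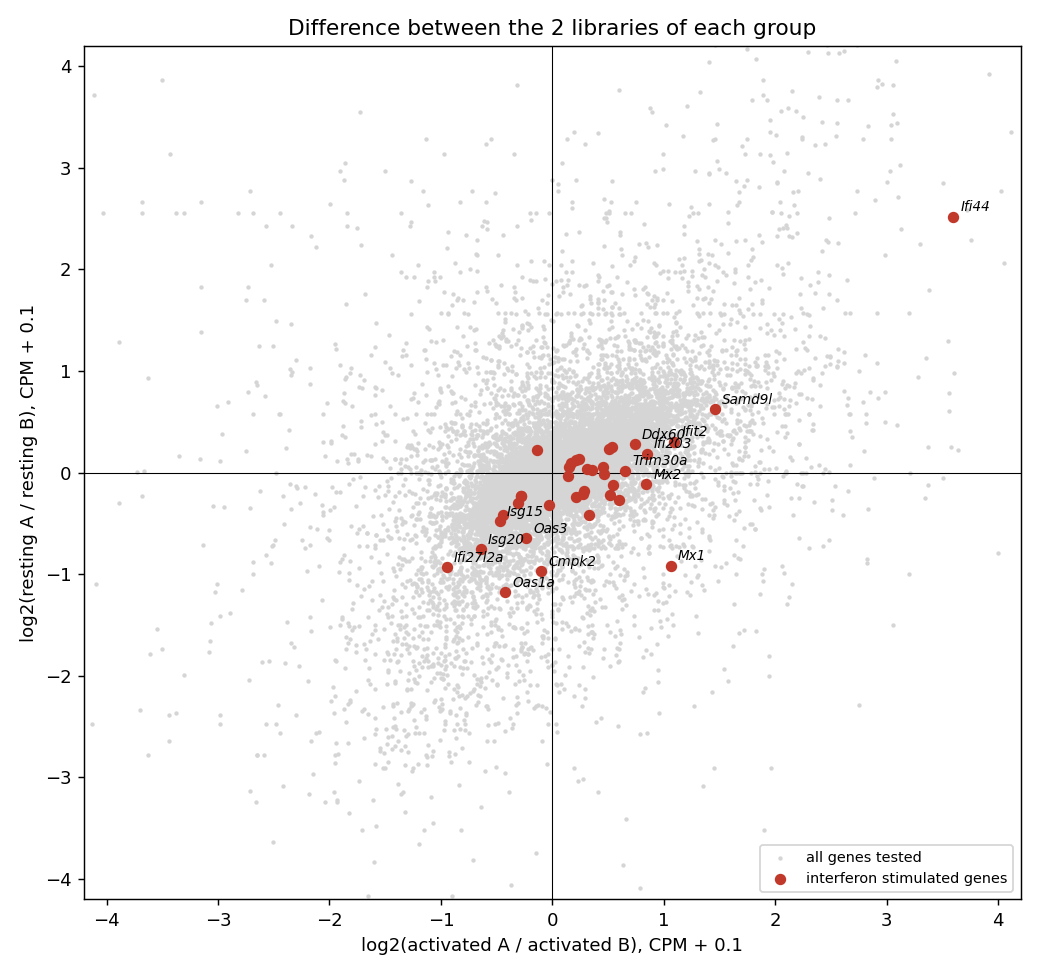
Log2 ratio of A to B in activated Treg (horizontal) and in resting Treg (vertical), from CPM plus 0.1, for the 38 genes in red and all 14235 genes tested in grey. Genes beyond 4.2 on either axis lie outside the frame. Ifi44 stands at 3.60 and 2.52, Ifi27l2a at -0.95 and -0.93, and Mx1 is positive in activated Treg, at 1.06, and negative in resting Treg, at -0.92.

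Values from libraries of the same letter were then set side by side, 1 library against 1, with no test and after the data were seen. The macrophage and monocyte markers summed to 495 CPM in activated A and 425 CPM in resting A. They summed to 64.2 CPM in activated B and 14.0 CPM in resting B, so the B libraries were not matched for them. The A libraries also differed in single markers, in both directions. Lyz2 was at 105 CPM in activated A and 11.8 CPM in resting A, and Vcam1 at 179 and 224 CPM. The members' median log2 ratio was -0.52 for activated B over resting B, with 34 of 38 below 0, and -0.15 for activated A over resting A, with 27 of 38 below 0. The median of all genes tested was -0.02 and 0.01 in the same comparisons. Oas2 had -1.56 and -1.92, Oasl1 -1.22 and -0.89, Usp18 -0.87 and -0.59, Ifit1 -0.96 and -0.47, Ifit3 -1.35 and -0.60 and Ifit3b -1.15 and -0.69, each for B and then A. Members whose sign differed between B and A included Mx1, at -0.53 and 1.45, Ifih1, at -0.14 and 0.59, and Rsad2, at -0.54 and 0.32. Plasmacytoid dendritic cell markers also differed between activated A and B, at 943 and 342 CPM in sum, and their part in the difference between the A and B ratios was not tested.

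**Figure D5:**
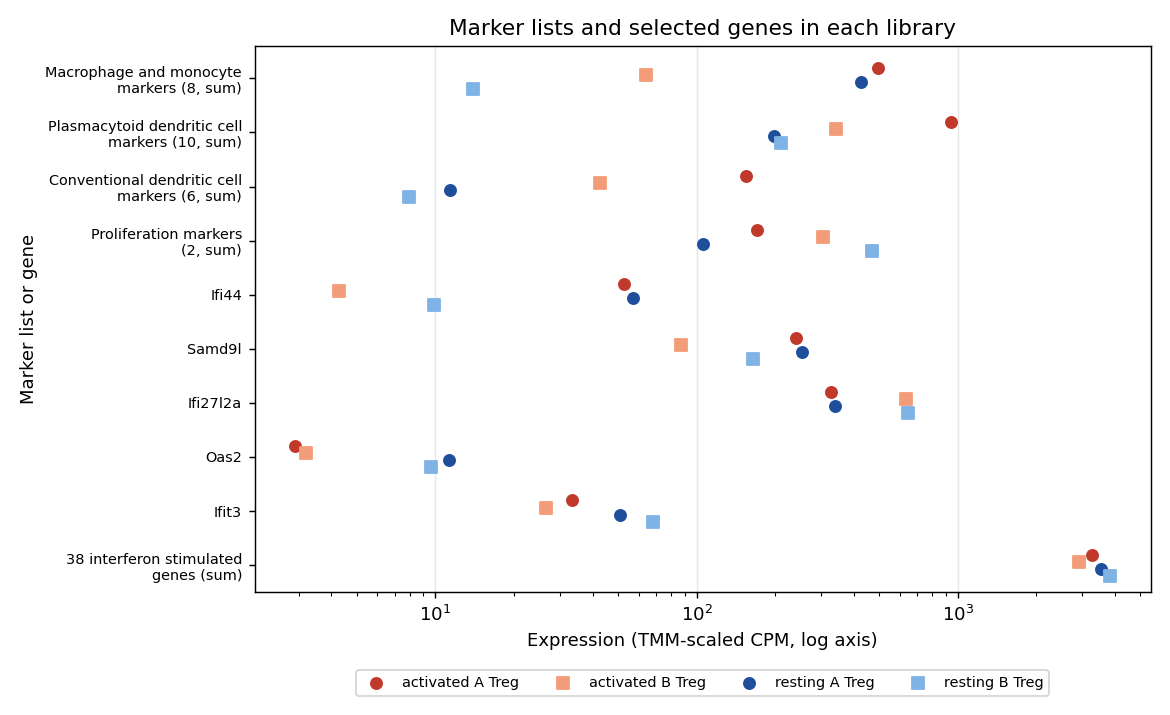
Summed markers of other cell types and of proliferation, 5 members and the sum of all 38, in each library, as TMM-scaled CPM on a log axis. Circles are A and squares B, with activated Treg in red and orange and resting Treg in blue. The macrophage and monocyte sum is at 495 and 425 CPM in the A libraries and 64.2 and 14.0 CPM in the B libraries, and the sum of the 38 genes runs from 2915 to 3823 CPM.

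Pathway genes beside the members lay on both sides of 0. Of 84 pathway genes listed beside the members, 80 were in the table and 64 passed the filter; 33 had a log2 fold change below 0 and 31 above. Both activated libraries were lower than both resting ones in 17 of the 64, higher in 15, and the groups overlapped in 32. Of all genes tested, 17.4% were lower in this way and 19.8% higher. The edgeR test called 0 of the 64 after adjustment, as it called 0% of all genes. Before adjustment it found 2 lower and 6 higher, where 2.61% and 6.3% of all genes were. DESeq2 called 3 higher (2.28% of all genes) and 0 lower (0.829%). The interferon genes themselves were nearly silent: the 14 ligand genes in the table had 13 counts in all over the 4 libraries. Ifnk had 5 and 1 counts in activated Treg and 2 and 1 in resting Treg, and Ifna4 and Ifnb1 had 2 counts each, all in activated B. The alpha interferon genes are near-identical copies, so reads shared between them could be lost in counting.

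The receptor genes Ifnar1 and Ifnar2 were at 198 and 148 CPM in activated Treg against 222 and 215 CPM in resting Treg, and at 83.0 and 53.8 CPM against 58.4 and 62.8 CPM. Jak1 was at 1032 and 901 CPM in activated Treg and 1369 and 1169 CPM in resting Treg, lower in both activated libraries, and Tyk2 at 133 and 177 CPM against 108 and 126 CPM, higher in both. Neither passed, with log2 fold changes of -0.39 ± 0.18 and 0.41 ± 0.22. Of the complex that binds the response element, Stat2 was at 123 and 111 CPM in activated Treg and 135 and 139 CPM in resting Treg, and Irf9 at 262 and 280 CPM against 321 and 308 CPM. Irf7, a factor that amplifies interferon production, was at 159 and 140 CPM in activated Treg and 140 and 155 CPM in resting Treg. The brake Socs1 was at 4.55 and 4.44 CPM against 3.60 and 6.01 CPM. Irf7 and Socs1 overlapped between the groups, and Stat2 and Irf9 did not. Adar, an RNA-editing enzyme, was at 225 and 228 CPM against 258 and 243 CPM.

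DESeq2 called 3 of the 8 pathway genes that edgeR found before adjustment. Irf5, a transcription factor of myeloid and B cells, was at 47.0 and 48.4 CPM in activated Treg and 12.2 and 17.7 CPM in resting Treg, a log2 fold change of 1.67 ± 0.25 (DESeq2 adjusted p = 1.49e-05, edgeR adjusted p = 0.267). Unc93b1, which carries nucleic acid sensing Toll-like receptors to endosomes, was at 135 and 76.4 CPM against 27.0 and 18.9 CPM, a log2 fold change of 2.20 ± 0.36 (DESeq2 adjusted p = 1.17e-06, edgeR adjusted p = 0.270). Ifitm1, which blocks viral entry, had 22 and 36 counts in activated Treg and 0 in both resting libraries. Its mean in activated Treg was 21.3-fold a floor of 3 counts over the resting group. The edgeR log2 fold change was 4.07 ± 1.49, or 16.8-fold (DESeq2 adjusted p = 0.0138, edgeR adjusted p = 0.319). Of the 10 plasmacytoid dendritic cell markers 7 were higher by DESeq2 in the same libraries, and their part in Irf5, Unc93b1 and Ifitm1 was not tested.

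The other 5 had edgeR adjusted p of 0.363 or more and DESeq2 adjusted p of 0.0767 or more. Tor3a was at 49.4 and 49.5 CPM in activated Treg and 30.8 and 29.97 CPM in resting Treg, and Apobec3, an editing enzyme that restricts retroviruses, at 691 and 624 CPM against 412 and 498 CPM. Ptpn11, a phosphatase, was at 53.4 and 58.3 CPM against 39.2 and 41.0 CPM. Sp100, a nuclear body protein, was at 1022 and 880 CPM in activated Treg and 1415 and 1332 CPM in resting Treg, and Slfn5 at 79.3 and 57.3 CPM against 121 and 95.3 CPM. Among the 33 other interferon induced genes outside the members, which include Apobec3, Sp100, Slfn5, Tor3a and Ifitm1, the median log2 fold change was 0.01, with 16 below 0 and 17 above, beside -0.29 for the members.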

How the data were processed

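Per the submitters' processing notes, STAR 2.4.0c, featureCounts, DESeq2 and the mm10 build were used, with no roles stated. Per the labels' protocols, libraries were made with a low-input template-switching kit (SMART-seq v4), which carries no molecular identifiers. The authors deposited raw counts per gene and a table of regularized log2 values; no label or header names the strand setting or annotation. The count table repeats 1 column name per group, so its columns were assigned to groups only. Of 38924 identifiers, 37607 matched a symbol (GENCODE M21, mm10).

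Genes were filtered with filterByExpr (minimum count 10, total 15) and tested across all 14235 with edgeR 4.0.16 (TMM, quasi-likelihood F-test, group only, Benjamini-Hochberg, threshold 0.05; R 4.3.3). The fold changes printed used a prior count of 2. Each SE is the size of the F-test's own fold change, computed without that prior count, divided by the root of F. Dispersion corresponded to a biological coefficient of variation of 0.352, and 2 residual degrees of freedom remained. DESeq2 1.42.0, limma 3.58.1, other scalings, no filter and leaving out each library were alternatives. An exact permutation test of 2 against 2 libraries cannot go below p = 0.333 and was not run. P-values measure only the spread between these libraries. The procedure was checked on simulated data.

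The members, role groups, pathway and marker lists were chosen with earlier results of these data known. Per-library values were given for members with an unadjusted edgeR p or DESeq2 adjusted p under 0.05, for the member with the highest mean CPM in each role group, for members of opposite sign to the median and size above 0.5 (none), for the Ifit3 pair, and for others chosen after their values were seen. Pathway genes were named if their unadjusted p was under 0.05 or if they were core signalling genes; some of these are not reported here. The gene listed as Mb21d1 was read as Cgas; Ifna6, Ifna7, Ifna11 and Ifnab were not analysed here. Words of 50 bases from each member's longest protein-coding transcript were looked up in all other genes' transcripts; how the authors counted shared reads is not stated.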

Additional observations from a re-analysis of the deposited data

How the results depend on the processing

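The members' median stayed below 0 under every alternative run, from -0.40 without activated A to -0.198 without activated B among single libraries left out, and was -0.22 with total counts only, against medians of all genes of 0.03, 0.0035 and 0.06. The number of genes called over all genes, 0 by edgeR, was 852 (177 lower) without a filter on low counts, 442 (118 lower) by DESeq2, and 0 to 370 (0 to 36 lower) when a library was left out. The number of members called was 2, Ifit3 and Oas2, without the filter and by DESeq2. Members at an unadjusted p under 0.05 numbered 3 to 12 when a library was left out, with 0 to 1 higher; pathway genes numbered 15 without the filter, 13 by DESeq2 and 4 to 15 without a library, beside 8. Members whose activated libraries all lay above the resting ones, 1 here, numbered 0 without the filter and 1 to 7 without a library. With a library left out, 2 libraries are set against 1, and such groups overlap less readily than 2 against 2. The range of 1 to 7 is therefore not comparable with the 1 here. The share of all genes in these sets is not given. The cause of the other shifts was not tested.

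The labels give both groups the replicate numbers 1 and 2, which only the regularized log table carries. There, replicate 1 minus replicate 2 correlated between the groups across 14235 genes (r = 0.65), but with 2 pairs and independent animals the numbers were not taken to pair samples. With the number as a replicate block, limma on these values called 1552 genes (525 lower) and 10 members, all lower, with 19 members at an unadjusted p under 0.05 (1 higher) and 26 pathway genes.

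Direction turned in these cases, as log2 fold changes. With total counts only, Dhx58 was at 0.048, Parp14 at 0.025 and Ifi27l2a at 0.032, and without the filter Irf7 was at -0.0102. Over the 4 sets that leave out a library, the range was -0.14 to 0.37 for Isg15, -0.12 to 1.05 for Oas1a, -0.14 to 1.01 for Mx1, -0.023 to 0.48 for Ifih1, -0.26 to 0.20 for Dhx58, -0.41 to 0.18 for Rsad2, -0.82 to 0.15 for Cmpk2, -0.16 to 0.61 for Isg20, -1.25 to 0.20 for Samd9l, -0.31 to 0.18 for Parp14, -0.51 to 0.12 for Trim30a, -2.93 to 1.51 for Ifi44, -0.59 to 0.49 for Ifi27l2a, -0.72 to 0.11 for Ifi203, -0.16 to 0.45 for Ifnar2, -0.067 to 0.11 for Irf7, -0.42 to 0.30 for Socs1 and -0.011 to 0.48 for Uba7.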
